A study of Mus musculus with 8 samples.

Results

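Dazl, Nanos3, Dnd1, Cpeb1, Stk31 and Dmrt1 are germ cell genes that were measured in mouse cells on their way from primordial germ cells to embryonic germ (EG) cells. They were taken by gene symbol, current or older, from the array's annotation, and 6 probes were found for these 6 of 16390 named genes, each with a value on all 8 arrays. There were 8 one-colour arrays, 2 for each of 4 groups: primordial germ cells taken at stage E11.5 (E11.5 PGC), cells cultured for 3 days (Day3) or 6 days (Day6), and EG cells, a pluripotent cell type derived from germ cells in culture. All samples carried a Nanog-GFP reporter, a fluorescent marker driven by a pluripotency gene, and per the series' design text the pluripotent candidate cells were purified by cell sorting during culture. The medium in the labels was Knockout DMEM with serum replacement (KSR), glutamine, amino acids, 2-ME, LIF and bFGF, with PD325901 at 1 µM (an inhibitor of MEK), CHIR99021 at 3 µM (an inhibitor of GSK3) and A83-01 at 250 nM (which blocks the receptors of Activin and Nodal). This protocol text stands on every sample, E11.5 PGC included, but among sample names it is those of Day3, Day6 and EG that carry the inhibitors. The labels give neither the mouse strain nor how many embryos were pooled, nor whether the 2 arrays of a group came from separate cultures, so p-values below measure the spread between these arrays, which may be technical.

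Germ cells control much of their gene expression after transcription, through proteins that bind mRNAs and change their poly(A) tails, their translation or their stability. Nanos3 and Dnd1 proteins keep migrating primordial germ cells alive, and Nanos proteins bring the CCR4-NOT complex, which removes poly(A) tails, to their target mRNAs. Dazl protein promotes the translation of its targets and is needed for the step at which germ cells in the gonad become able to enter oogenesis or spermatogenesis, while Cpeb1 protein represses or activates mRNAs in oocytes by way of their tails. These 4 bind RNA. Stk31 protein is different, with a Tudor domain, which in other proteins reads methylated arginine, and a kinase-like domain. Dmrt1 is a transcription factor with a DM domain, which binds DNA, and it acts in germ cells of the fetal gonad and in Sertoli cells, so the shared name of RNA-binding translational regulators does not cover it.

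The promoters of Dazl, Nanos3, Cpeb1 and Stk31 are shown for their content of CpG, the substrate of DNA methylation, which is erased in primordial germ cells. Those of Dnd1 and Dmrt1 are not shown. The sequences are those of RefSeq on GRCm38.p6, 250 bases before to 50 after the start of each gene, and read 5′ to 3′ on the gene's strand. They lie at chr17:50293571-50293870 on the minus strand for Dazl, chr8:84176503-84176802 on the minus strand for Nanos3, chr7:81454709-81455008 on the minus strand for Cpeb1 and chr6:49395289-49395588 on the plus strand for Stk31 (the first of its 2 entries). Capitals mark CACGTG, the E-box read by Max and its partners, and GCGGGA on either strand, the core of the site of E2f factors.
Dazl: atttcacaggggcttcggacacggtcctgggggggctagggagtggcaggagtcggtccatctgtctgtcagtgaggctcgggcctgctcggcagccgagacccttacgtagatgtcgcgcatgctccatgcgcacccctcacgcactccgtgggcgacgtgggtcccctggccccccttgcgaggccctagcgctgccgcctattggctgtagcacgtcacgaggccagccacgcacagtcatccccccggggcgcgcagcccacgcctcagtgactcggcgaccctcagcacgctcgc
Nanos3: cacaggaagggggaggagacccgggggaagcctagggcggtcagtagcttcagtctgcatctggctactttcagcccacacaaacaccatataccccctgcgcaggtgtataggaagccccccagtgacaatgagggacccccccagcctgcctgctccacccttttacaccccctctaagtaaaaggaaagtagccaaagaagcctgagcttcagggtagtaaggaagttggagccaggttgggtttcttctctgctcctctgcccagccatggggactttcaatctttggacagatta
Cpeb1: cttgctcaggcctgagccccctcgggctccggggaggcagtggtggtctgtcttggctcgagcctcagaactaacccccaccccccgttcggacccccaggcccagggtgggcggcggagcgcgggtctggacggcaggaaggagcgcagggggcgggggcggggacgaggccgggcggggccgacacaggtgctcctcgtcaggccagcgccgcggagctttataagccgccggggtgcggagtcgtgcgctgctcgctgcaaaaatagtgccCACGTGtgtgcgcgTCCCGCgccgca
Stk31: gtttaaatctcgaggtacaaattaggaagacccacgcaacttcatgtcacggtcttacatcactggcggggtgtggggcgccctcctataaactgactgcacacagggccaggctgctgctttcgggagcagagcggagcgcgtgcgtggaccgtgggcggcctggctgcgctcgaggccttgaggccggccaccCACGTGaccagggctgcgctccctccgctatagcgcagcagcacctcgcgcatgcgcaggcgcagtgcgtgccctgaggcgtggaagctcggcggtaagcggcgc
Dazl had 28 CpGs in these 300 bases, Stk31 had 29 and Cpeb1 had 33, against a median of 7 and a 90th percentile of 31 over the 32851 promoters of the table. Nanos3 had 3 CpGs, which is below that median. CACGTG stood in the windows of Cpeb1 and Stk31 and in 7.15% of all promoters, and GCGGGA stood in that of Cpeb1 and in 20% of all. No match of these letters overlapped another, and the match of letters was not tested for binding.

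Between 21126 and 22404 of 23473 probes were measured per array, and the deposited intensities had been scaled to array medians between 19.99 and 20.01. By their names the arrays form 2 series. Series A holds both EG arrays and replicate 1 of the other groups, and series B replicate 2 of those groups. Replicates of the same series deviated together from their group means (r across probes of 0.547 to 0.694 between those 3 groups), so changes are also given within each series, and for the 6 genes values with the series as a block are printed where they alter a call.

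Of 9 germ cell markers, none lay among the dimmest 25% of probes on both arrays of any group, and their summed intensity was 14717 and 9260 on the E11.5 PGC arrays, 10093 and 10091 on the Day3 arrays, 6260 and 12741 on the Day6 arrays, and 4682 and 6136 on the EG arrays. Within this list Nanog, which also marks pluripotent cells and drives the reporter, rose at Day6 (1.95, adjusted p = 0.0464 by limma), and the sum of the other 8 genes was 13197 and 7553 on the E11.5 PGC arrays, 7421 and 5771 on the Day3 arrays, 1966 and 3749 on the Day6 arrays, and 2260 and 1953 on the EG arrays. Dppa3 made up most of the latter sum on the E11.5 PGC arrays, with 10540 and 5303. It was 456 and 1648 on the Day6 arrays. Against E11.5 PGC, Dppa3 fell at Day6 (-3.11, adjusted p = 0.0338 by limma) and in EG (-3.64, adjusted p = 0.0182), Ddx4 fell in both, and Kit fell in EG (-2.22, adjusted p = 0.0245). Alpl, Prdm14, Tfap2c, Prdm1 and Tdrd7 were called in neither (0.33, -0.10, -0.89, -0.89 and -1.40 at Day6).

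The markers Ptprc of blood (2.81 to 5.74), Wt1 of gonadal somatic cells (3.66 to 12.5) and Cdh5 of endothelium (at most 2.61 or missing) were dim on all arrays, but other genes of these lists were not. Cldn5, a junction gene of endothelium, was 105 and 80.7 on the E11.5 PGC arrays and at most 14.2 on the others, and it fell at Day3 (adjusted p = 0.0139 by limma), Day6 (0.00206) and in EG (0.00586). Tyrobp, an adaptor gene of myeloid cells, was 43.3 and 34.6 on the E11.5 PGC arrays and at most 12.3 on the others, and it too fell in all 3 comparisons (adjusted p of 0.0262, 0.00916 and 0.00793 by limma). The summed intensity of 5 endothelial genes was 137 and 108 on the E11.5 PGC arrays, 38 and 39 on the Day3 arrays, 35 and 56 on the Day6 arrays, and 41 and 42 on the EG arrays, and that of the 3 of 6 blood genes with a probe was 74 and 78 on the E11.5 PGC arrays and 37 to 56 on the others. Both sums were highest in E11.5 PGC, as were the group means of 5 of the 6 genes, but Cldn5 and Tyrobp carried those sums. Without Cldn5 the endothelial sum was 31 and 27 on the E11.5 PGC arrays and 28 and 24 on the Day3 arrays. It was 31 and 49 on the Day6 arrays and 27 and 30 on the EG arrays. Without Tyrobp the blood sum was 31 and 44 on the E11.5 PGC arrays and 25 to 44 on the others. Tek, another endothelial gene, rose at Day6 (2.75, adjusted p = 0.0316 by limma). The part of these genes in the results was not tested.

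The summed intensity of 10 gonadal somatic genes was at most 87.8 outside EG and 171 and 176 in EG. Amhr2, a receptor gene, carried the EG sum with 136 and 144, against 7.87 and 7.22 on the E11.5 PGC arrays, and it rose at Day6 (2.26) and in EG (4.21). The other 9 genes summed to 35 and 33 in EG, against 51 and 81 in E11.5 PGC, and one of them, Lhx9, fell at Day6 (-2.47, adjusted p = 0.0262 by limma). The summed intensity of 10 fibroblast genes was 78 and 128 on the E11.5 PGC arrays, 274 and 421 on the Day3 arrays, 2650 and 119 on the Day6 arrays, and 1031 and 337 on the EG arrays. S100a4 (808 and 190) and Thy1 (96.6 and 71.0) carried the EG sums, while the collagen genes Col1a1 (9.34 and 11.8) and Col3a1 (13.5 and 10.4) were dim there. Without S100a4 and Thy1 the sum was 69 and 125 on the E11.5 PGC arrays, 224 and 404 on the Day3 arrays, 568 and 95 on the Day6 arrays, and 127 and 76 on the EG arrays. Dcn, also of this list, was 4.53 and 8.31 on the E11.5 PGC arrays and 75.9 and 173 on the Day3 arrays. It rose at Day3 (4.22, adjusted p = 0.0436 by limma). No other gene of the list was called against E11.5 PGC without the block. Since each array measured a whole population, fewer expressing cells and less RNA per cell cannot be told apart.

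Dazl had a scaled intensity of 2024 and 1867 on the E11.5 PGC arrays, 999 and 1971 on the Day3 arrays, 188 and 1024 on the Day6 arrays, and 39.2 and 124 on the EG arrays. The order by group mean was E11.5 PGC, Day3, Day6, EG, with geometric means of 1944, 1403, 438 and 69.8, and the arrays of Day3 overlapped those of E11.5 PGC and Day6. The EG arrays lay below all others. The 2 Day6 arrays disagreed widely, by 2.45 on the log2 scale, a gap larger than that of 97.6% of probes at Day6.

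Nanos3 was measured at 920 and 368 on the E11.5 PGC arrays, 496 and 125 on the Day3 arrays, 121 and 174 on the Day6 arrays, and 262 and 147 on the EG arrays. Its order by geometric mean was E11.5 PGC (582), Day3 (249), EG (196) and Day6 (145). Both E11.5 PGC arrays were above both Day6 and both EG arrays, and every other pair of groups overlapped. The E11.5 PGC arrays themselves differed by 1.32 on the log2 scale, more than 94.5% of probes in that group.

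Dnd1 gave intensities of 2140 and 1555 on the E11.5 PGC arrays, 568 and 288 on the Day3 arrays, 43.0 and 30.7 on the Day6 arrays, and 89.4 and 104 on the EG arrays. No 2 groups overlapped, and the Day6 arrays were the lowest. The geometric means were 1824, 405, 36.4 and 96.5 in that same order of groups, so Day6 arrays kept 2.36% and 1.69% of the E11.5 PGC mean, and EG 5.29%.

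Cpeb1 intensities were 512 and 508 on the E11.5 PGC arrays, 131 and 216 on the Day3 arrays, 14.9 and 21.7 on the Day6 arrays, and 22.5 and 19.7 on the EG arrays. In order of groups the geometric means were 510, 169, 17.998 and 21.0. E11.5 PGC, Day3 and the later groups did not overlap, while Day6 and EG did. The Day3 arrays held 25.8% and 42.4% of the E11.5 PGC mean, and the Day6 arrays 2.92% and 4.26%.

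Stk31 read 237 and 271 on the E11.5 PGC arrays, 98.8 and 210 on the Day3 arrays, 51.1 and 202 on the Day6 arrays, and 25.3 and 38.3 on the EG arrays. Its geometric means followed the order of groups, at 253, 144, 102 and 31.1. The E11.5 PGC arrays were the highest and the EG arrays the lowest, and Day3 overlapped Day6. As for Dazl, replicate 1 of Day6 was far below replicate 2, by 1.98 on the log2 scale, which exceeds the gap of 95.5% of probes.

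Dmrt1 was the one gene of the 6 with its highest intensities at Day3: 121 and 103 on the E11.5 PGC arrays, 160 and 186 on the Day3 arrays, 25.02 and 48.6 on the Day6 arrays, and 41.1 and 39.6 on the EG arrays. Both Day3 arrays were above both E11.5 PGC arrays, and these were above all Day6 and EG arrays. Day6 and EG overlapped, with geometric means of 34.9 and 40.3.

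**Figure D1:**
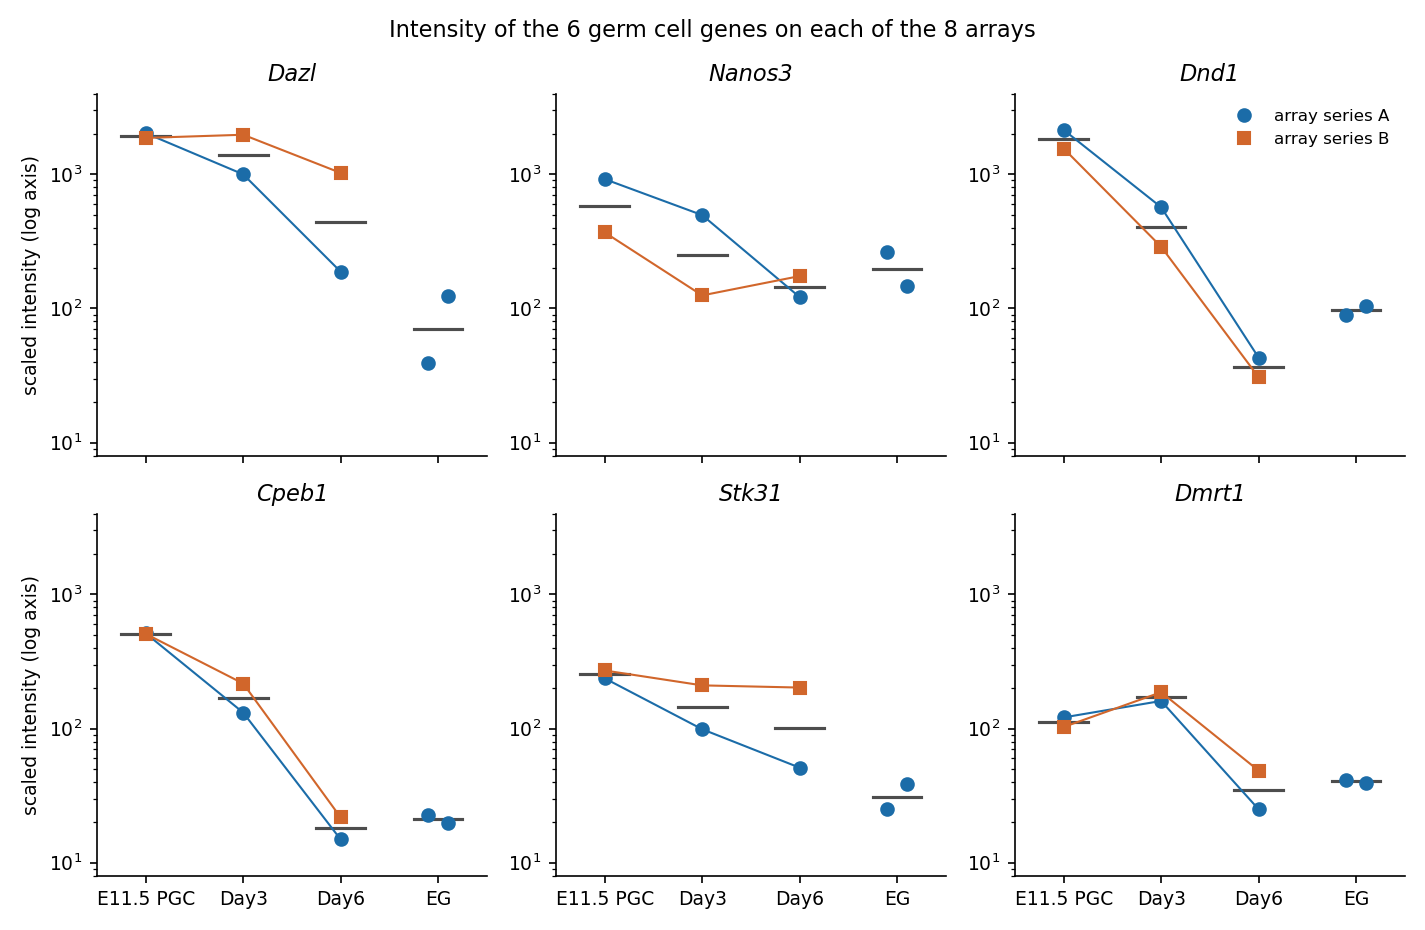
Scaled intensity (log axis) of the 6 genes on each of the 8 arrays, by group; blue circles are series A, orange squares series B, black bars the geometric mean of a group, and lines join arrays of one series. Dnd1 and Cpeb1 were low on both Day6 arrays, whereas Dazl and Stk31 were low on 1 of them and the Dmrt1 points peak at Day3.

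At Day3, Dnd1 and Cpeb1 were below E11.5 PGC on both arrays, and Dnd1 passed the test without a block. Its log2 change at Day3 against E11.5 PGC was -2.17 ± 0.40 (SE, n = 2 and 2), a 4.51-fold lower intensity with an adjusted p of 0.0453 by limma with Benjamini-Hochberg adjustment over all probes tested, and its changes within series A and B were -1.91 and -2.43. It was the 1 member of 6 called lower, where 0.754% of all probes were called lower, and no member was called higher, where 1.33% of probes were. Cpeb1, the regulator of poly(A) tails, had a log2 change of -1.60 ± 0.34 (adjusted p = 0.0727 by limma), with -1.96 and -1.23 within the series. With the array series as a block, 2 members were called lower, against 4% of all probes: Dnd1 (adjusted p = 0.00546 by limma) and Cpeb1 (adjusted p = 0.0160 by limma).

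The other 4 genes did not pass the test at Day3 with or without the block. The log2 change of Dazl was -0.47 ± 0.86 (95% interval -2.49 to 1.55), with -1.02 within series A and 0.08 within series B. That of Nanos3 was -1.22 ± 0.72 (-2.92 to 0.47), with -0.89 and -1.56 within the series, and that of Stk31 -0.81 ± 0.66 (-2.38 to 0.75), with -1.26 and -0.37. Dmrt1, the DNA-binding member, was measured higher at Day3, by 0.63 ± 0.36 (-0.21 to 1.48), with 0.41 and 0.86 within the series. The arrays of 3 members lay apart below E11.5 PGC, as for 25.3% of probes, and those of Dmrt1 apart above it, as for 15.8%. The Dnd1 call was lost when either E11.5 PGC array, either Day3 array or either EG array was left out of the fit (adjusted p of 0.0625 to 0.252 by limma), or when the 4 arrays of Day3 and E11.5 PGC were fitted alone.

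At Day6, Dnd1, Cpeb1 and Dmrt1 were called lower than in E11.5 PGC. Dnd1 fell 50.2-fold, with a log2 change of -5.65 ± 0.40 (SE, n = 2 and 2; adjusted p = 0.00137 by limma) and nearly the same change in each series, -5.64 and -5.66. Cpeb1 fell 28.3-fold, by -4.82 ± 0.34 on the log2 scale (adjusted p = 0.00137 by limma), with -5.10 and -4.55 within the series. Dmrt1 fell 3.20-fold, by -1.68 ± 0.36 (adjusted p = 0.0333 by limma), with -2.27 and -1.08 within the series. These 3 of 6 members stand beside 4.28% of all probes called lower (4.34% were called higher). With the array series as a block the same 3 were called, beside 14.3% of probes. In the fit without a block the members' median change was -2.07, against -0.16 over all probes. The calls of Dnd1 and Cpeb1 held in each of the 16 settings run. That of Dmrt1 was lost without either E11.5 PGC array, without Day6 replicate 1 or without either EG array. It was also lost when the 4 arrays of Day6 and E11.5 PGC were fitted alone (adjusted p = 0.134 by limma).

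Dazl, Nanos3 and Stk31 lay on both Day6 arrays below both E11.5 PGC arrays, as did all 6 members and 31% of all probes, but their changes did not pass the test. The log2 changes were -2.15 ± 0.86 for Dazl (adjusted p = 0.183 by limma), -2.001 ± 0.72 for Nanos3 (adjusted p = 0.145) and -1.32 ± 0.66 for Stk31 (adjusted p = 0.286). The size of each of these changes differed between the array series. The Dazl difference was -3.43 within series A and -0.87 within series B, that of Stk31 -2.21 and -0.42, and that of Nanos3 -2.92 and -1.08. Without Day6 replicate 2 the changes were -3.37 for Dazl and -2.31 for Stk31, and without Day6 replicate 1 they were -0.92 and -0.33. With the replicate number as a block Dazl was called lower (adjusted p = 0.0483 by limma), as were 1543 of 20136 probes. Day6 replicate 1, the array with little Dazl and Stk31 RNA, was also the one with a summed fibroblast intensity of 2650, against 119 on replicate 2, of which S100a4 and Thy1 made up the larger share, and with Col1a1 at 43.6, against 9.89. Its part in these results was not tested. Dnd1 and Cpeb1 were low on both Day6 arrays.

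In EG cells, 5 of the 6 genes were called lower than in E11.5 PGC. Of all probes, 5.61% were called lower and 5.57% higher. With the array series as a block the same 5 were called, beside 14.4% of probes. Dazl fell 27.9-fold, with a log2 change of -4.80 ± 0.86 (SE, n = 2 and 2; adjusted p = 0.0170 by limma), or -3.97 without EG replicate 1 and -5.63 without EG replicate 2. Cpeb1 fell 24.2-fold (-4.60 ± 0.34, adjusted p = 0.00139 by limma) and Dnd1 18.9-fold (-4.24 ± 0.40, adjusted p = 0.00262 by limma). Stk31 fell 8.14-fold (-3.03 ± 0.66, adjusted p = 0.0310 by limma) and Dmrt1 2.77-fold (-1.47 ± 0.36, adjusted p = 0.0431 by limma). Nanos3, whose protein is needed for germ cell survival, kept 33.7% of its E11.5 PGC mean in EG and was not called (-1.57 ± 0.72, 95% interval -3.27 to 0.13, adjusted p = 0.215 by limma). All 6 members lay below E11.5 PGC on both EG arrays, as did 39.9% of probes, and their median change was -3.63, against -0.16 over all probes.

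Both EG arrays belong to series A, and set against the E11.5 PGC array of that series the changes were -4.86 for Dazl, -2.23 for Nanos3, -4.47 for Dnd1, -4.61 for Cpeb1, -2.93 for Stk31 and -1.59 for Dmrt1. The calls of Dnd1 and Cpeb1 held in all 16 settings, but those of Dazl (adjusted p of 0.0669 to 0.119 by limma), Stk31 (0.116 to 0.190) and Dmrt1 (0.151 to 0.228) were lost when any single E11.5 PGC or EG array was left out, and that of Dmrt1 also without either Day3 array (0.0592) and after quantile normalization (0.0652). The comparisons of Day3, Day6 and EG with E11.5 PGC share the same 2 E11.5 PGC arrays, so they are not independent of each other.

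**Figure D2:**
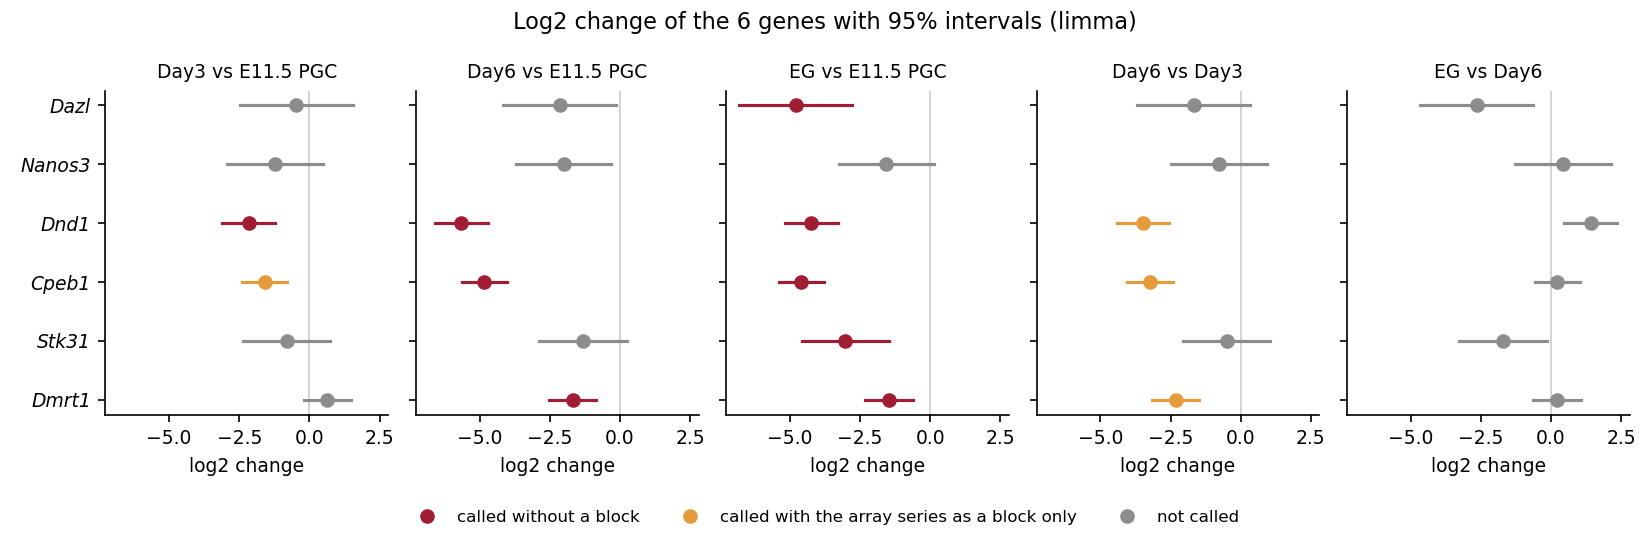
Log2 change of each gene in the 5 comparisons (point, x axis) with its 95% interval from limma without a block (line); red marks a call at an adjusted p under 0.05 without a block, orange a call with the array series as a block only, grey no call. Against E11.5 PGC, 1 gene was called at Day3, 3 at Day6 and 5 in EG.

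The later days of culture were compared as Day6 against Day3, where no probe at all passed the test without a block (0% called lower, 0 of 20015, and 1783 at an unadjusted p under 0.05 by limma). Dnd1 differed by -3.48 ± 0.40 between Day6 and Day3 (SE, n = 2 and 2; adjusted p = 0.0634 by limma), Cpeb1 by -3.23 ± 0.34 (adjusted p = 0.0634) and Dmrt1 by -2.31 ± 0.36 (adjusted p = 0.0897). Their Day6 arrays all lay below their Day3 arrays, as for 16.9% of probes, and the change had a similar size in each series: -3.72 and -3.23 for Dnd1, -3.14 and -3.32 for Cpeb1, and -2.68 and -1.94 for Dmrt1. With the array series as a block all 3 fell, against 0.829% of probes called lower: Dnd1 11.1-fold (adjusted p = 0.0151 by limma), Cpeb1 9.37-fold (adjusted p = 0.0161) and Dmrt1 4.96-fold (adjusted p = 0.0300). These 3 blocked calls were all lost when any Day3 or Day6 array was left out. So were nearly all blocked calls of this comparison, and the loss is not particular to these genes. Dazl (-1.68 ± 0.86), Nanos3 (-0.78 ± 0.72) and Stk31 (-0.50 ± 0.66) overlapped between Day6 and Day3 and were not called with or without the block.

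Between EG and Day6 no member passed the test with or without the block, where 0.0298% of all probes were called lower and 0.139% higher without it, and 0.716% lower with it (34 of 20103 called in all without it, and 2618 at an unadjusted p under 0.05 by limma). The members went different ways by array. Both EG arrays were below both Day6 arrays for Dazl (-2.65 ± 0.86, adjusted p = 0.259 by limma) and Stk31 (-1.71 ± 0.66, adjusted p = 0.344), as for 22.8% of probes. Dnd1 was 89.4 and 104 in EG, above the 43.0 and 30.7 at Day6, as for 23.4% of probes (1.41 ± 0.40, adjusted p = 0.210 by limma, and 0.0768 with the block). Nanos3 (0.43), Cpeb1 (0.23) and Dmrt1 (0.21) overlapped between EG and Day6.

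The 6 profiles were set against each other and against the other 14027 named genes over the 8 arrays, as a description. Pearson's r between Dazl and Stk31 was 0.97, and Stk31 ranked 10 among all genes by likeness to Dazl. Dnd1 and Cpeb1 had an r of 0.95, with ranks of 113 and 133 in each other's order. The lowest values were those of Nanos3 with Stk31 (0.35) and with Dazl (0.38), although Nanos3 had an r of 0.79 with Dnd1 and 0.66 with Cpeb1. The 8 arrays share groups, labelling and array series, all of which enter these values.

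The genes nearest in pattern to Dazl were Prmt9 (r = 0.99), an arginine methyltransferase, Fbxo25 (0.98), an F-box protein gene, and Cenpi (0.98), which encodes a centromere protein. For Nanos3 they were Snrpc (0.99), a part of the U1 snRNP, Spdya (0.98), an activator of cyclin-dependent kinases that was dim here, and Ankrd13d (0.97). For Dnd1 they were Ndfip2 (0.99), 2310030G06Rik (0.99) and Osbpl2 (0.99), and for Cpeb1 Crebzf (0.99), Atl1 (0.99) and Rnf182 (0.99). Nearest to Stk31 were E2f3 (0.99), a cell cycle transcription factor, Zcchc10 (0.98) and Vps4a (0.98). Dmrt1 was nearest to Hscb (0.98), a gene of iron-sulfur cluster assembly, to Dmrt3 (0.97) and to Fxyd2 (0.97). Pearson's r takes no account of the size of a change. Cenpi went from 181 and 174 on the E11.5 PGC arrays to 114 and 119 on the EG arrays. Rnf182 went from 207 and 168 to 8.65 and 5.81.

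Dmrt3, another DM-domain transcription factor, is the neighbour of Dmrt1 on chromosome 19, with 0 protein-coding genes between them. Its intensities were 25.3 and 28.8 on the E11.5 PGC arrays, 39.2 and 36.7 on the Day3 arrays, 6.49 and 15.1 on the Day6 arrays, and 7.55 and 8.20 on the EG arrays. As for Dmrt1, both Day3 arrays were the highest, and the Day6 and EG arrays lay below the rest. Dmrt3 fell in EG against E11.5 PGC (-1.78 ± 0.40, adjusted p = 0.0348 by limma). At Day6 the change was -1.45 ± 0.40 (adjusted p = 0.0744, and 0.0233 with the block), and at Day3 0.49 (adjusted p = 0.691).

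Of 14 relatives of the members, 12 had a probe. Boll, the germ cell paralogue of Dazl, was 30.7 and 23.5 on the E11.5 PGC arrays, 14.0 and 12.8 on the Day3 arrays, 11.3 and 11.8 on the Day6 arrays, and 12.7 and 11.4 on the EG arrays. It fell at Day6 (-1.22 ± 0.27, adjusted p = 0.0356 by limma) and in EG (-1.16 ± 0.27, adjusted p = 0.0359), and was the 1 of 11 relatives tested that was called lower at Day6. With Dmrt3 it made 2 of 12 in EG. Of all probes, 4.28% were called lower at Day6 and 5.61% in EG. In the model with the block, 1 relative was called lower at Day3 (Boll, adjusted p = 0.0366 by limma), 3 at Day6 (Boll, Dmrt3 and Dmrtc2, the last at -1.71, adjusted p = 0.0359) and 2 in EG. Beside them, the block called 4% of all probes lower at Day3, 14.3% at Day6 and 14.4% in EG. No relative was called higher, where the block called 4.34% of all probes higher at Day3, 9.5% at Day6 and 9.24% in EG. The Boll call at Day6 was lost when any single array was left out, and both EG calls, of Boll and Dmrt3, in 6 of 8 such fits.

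Nanos2, the relative of Nanos3 that acts in male germ cells, stayed between 59.2 and 93.9 on all 8 arrays, with log2 changes of -0.08 at Day3, -0.10 at Day6 and 0.02 in EG against E11.5 PGC. Cpeb3, a relative of Cpeb1, lay between 19.99 and 59.7 and was higher in series B than in series A within 3 groups (26.4 and 45.0 in E11.5 PGC, 19.99 and 49.8 at Day6). Dmrta1, Dmrta2, Dmrtb1, Dmrtc2 and A1cf were not called in any of the 5 comparisons without the block, and Cpeb2, Cpeb4 and Dmrt2 were dim or missing on some arrays. The relatives' median change was -0.13 at Day6 and 0.10 in EG, beside the members' -2.07 and -3.63.

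Of 21 other RNA-binding genes of germ and stem cells, 16 had a probe. At Day6, 2 of them rose and 2 fell, beside 4.34% of all probes called higher and 4.28% lower. In EG again 2 rose and 2 fell, beside 5.57% and 5.61%. The largest change was that of Patl2, an oocyte factor that represses translation: it was 3.63 and 3.05 on the E11.5 PGC arrays, 57.1 and 54.2 on the Day3 arrays, 30.7 and 17.9 on the Day6 arrays, and 487 and 395 on the EG arrays. Patl2 rose at Day3 (4.07 ± 0.33, adjusted p = 0.00506 by limma), at Day6 (2.82 ± 0.33, adjusted p = 0.00476) and in EG (7.04 ± 0.33, adjusted p = 0.000570), and was higher in EG than at Day6 (4.23 ± 0.33, adjusted p = 0.0143). Of these the Day3 call was lost without E11.5 PGC replicate 2 and the EG call against Day6 in 6 of 8 fits without 1 array, and the E11.5 PGC arrays were near the dim end of the scale. Rbpms2, another RNA-binding protein gene, rose at Day6 (1.61) and in EG (1.91), each call lost in 3 of 8 such fits.

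Ddx4, the germ cell RNA helicase Vasa, was 626 and 498 on the E11.5 PGC arrays, 277 and 175 on the Day3 arrays, 187 and 182 on the Day6 arrays, and 201 and 191 on the EG arrays. It fell at Day6 (-1.60 ± 0.31, adjusted p = 0.0237 by limma) and in EG (-1.51 ± 0.31, adjusted p = 0.0253). The call at Day6 was lost in 6 of 8 fits without 1 array and that in EG in 4 of 8. The other genes that fell were Ybx2 (-1.81) at Day6 and Igf2bp2 (-1.40, dim) in EG, calls lost in 5 and 6 of 8 such fits. The list's median was -0.48 at Day6 and -0.22 in EG.

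Fitted with the block, 4 genes of this list rose and 4 fell at Day6, beside 9.5% of all probes called higher and 14.3% lower. In EG 3 rose and 2 fell, beside 9.24% and 14.4%. Those added at Day6 were Igf2bp1 (1.33, adjusted p = 0.00971 by limma) and Syncrip (0.85, adjusted p = 0.0407), both mRNA-binding protein genes, which rose, and Elavl2 (-0.87, adjusted p = 0.0258) and Igf2bp2 (-1.03, adjusted p = 0.0250), which fell. Ybx2 and Ddx4 fell and Patl2 and Rbpms2 rose at Day6 in either model. The gene added in EG was Rbpms (1.02, adjusted p = 0.0272 by limma), which rose. Ddx4 also fell at Day3 with the block (adjusted p = 0.0202 by limma).

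The general machinery that such regulators act through was set beside them. Of 17 measured genes of deadenylation, Btg2, an antiproliferative partner of the CCR4-NOT complex, rose at Day3 (2.36 ± 0.32, adjusted p = 0.0187 by limma), Day6 (2.46 ± 0.32, adjusted p = 0.00617) and in EG (2.01 ± 0.32, adjusted p = 0.0119). Cnot4 fell at Day6 (-1.16), and Cnot11 (-1.99), Cnot2 (-1.36) and Pan2 (-1.04) fell in EG, and each of these 4 calls was lost in at least 4 of 8 fits without 1 array, that of Btg2 in 6 at Day3, 1 at Day6 (without E11.5 PGC replicate 1, adjusted p = 0.05004) and 4 in EG. The list's median was -0.59 at Day6 and -0.58 in EG. Of 17 measured partners in translation and polyadenylation, Eif4enif1, which binds the cap-binding protein eIF4E, fell at Day6 (-1.08) and in EG (-1.09), and Cpsf2, a subunit of the polyadenylation complex, fell in EG (-1.40), with each call lost in 4 to 8 of 8 such fits. With the array series as a block, 1 deadenylation gene was called higher and 5 lower at Day6, and 2 higher and 4 lower in EG. The partners had 4 called lower at Day6 and 3 in EG, and none higher. Over all probes the block called 9.5% higher and 14.3% lower at Day6, and 9.24% higher and 14.4% lower in EG.

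Of 8 measured genes reported downstream of the members in other studies, Lats2, a kinase of the Hippo pathway, was the 1 called without the block. It was 142 and 200 on the E11.5 PGC arrays, 78.0 and 55.6 on the Day3 arrays, 38.8 and 26.8 on the Day6 arrays, and 12.6 and 17.2 on the EG arrays, and fell at Day6 (-2.39 ± 0.35, adjusted p = 0.00953 by limma) and in EG (-3.52 ± 0.35, adjusted p = 0.00302). No 2 groups of Lats2 overlapped, and of the fits without 1 array only that without E11.5 PGC replicate 2 lost a call, at Day6 (adjusted p = 0.0723 by limma). Sycp3, a protein of the meiotic chromosome axis whose mRNA is bound by Dazl, was 320 and 137 on the E11.5 PGC arrays, 137 and 254 on the Day3 arrays, 49.9 and 77.5 on the Day6 arrays, and 289 and 378 on the EG arrays, and was called in none of the comparisons without the block. With the block it fell at Day6 against E11.5 PGC (adjusted p = 0.0485 by limma). In that model the list had 3 genes called lower and 1 higher of 8 at Day6, beside 14.3% and 9.5% of all probes. In EG the list had 2 lower of 7, beside 14.4%. Tex19.1, a germ cell gene that restrains transposons, was 1102 and 851 on the E11.5 PGC arrays, 850 and 492 on the Day3 arrays, 730 and 402 on the Day6 arrays, and 339 and 428 on the EG arrays. It fell with the block at Day6 (-0.84, adjusted p = 0.0424 by limma) and in EG (-1.68, adjusted p = 0.00702), and was not called without it (adjusted p of 0.274 and 0.0835).

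**Figure D3:**
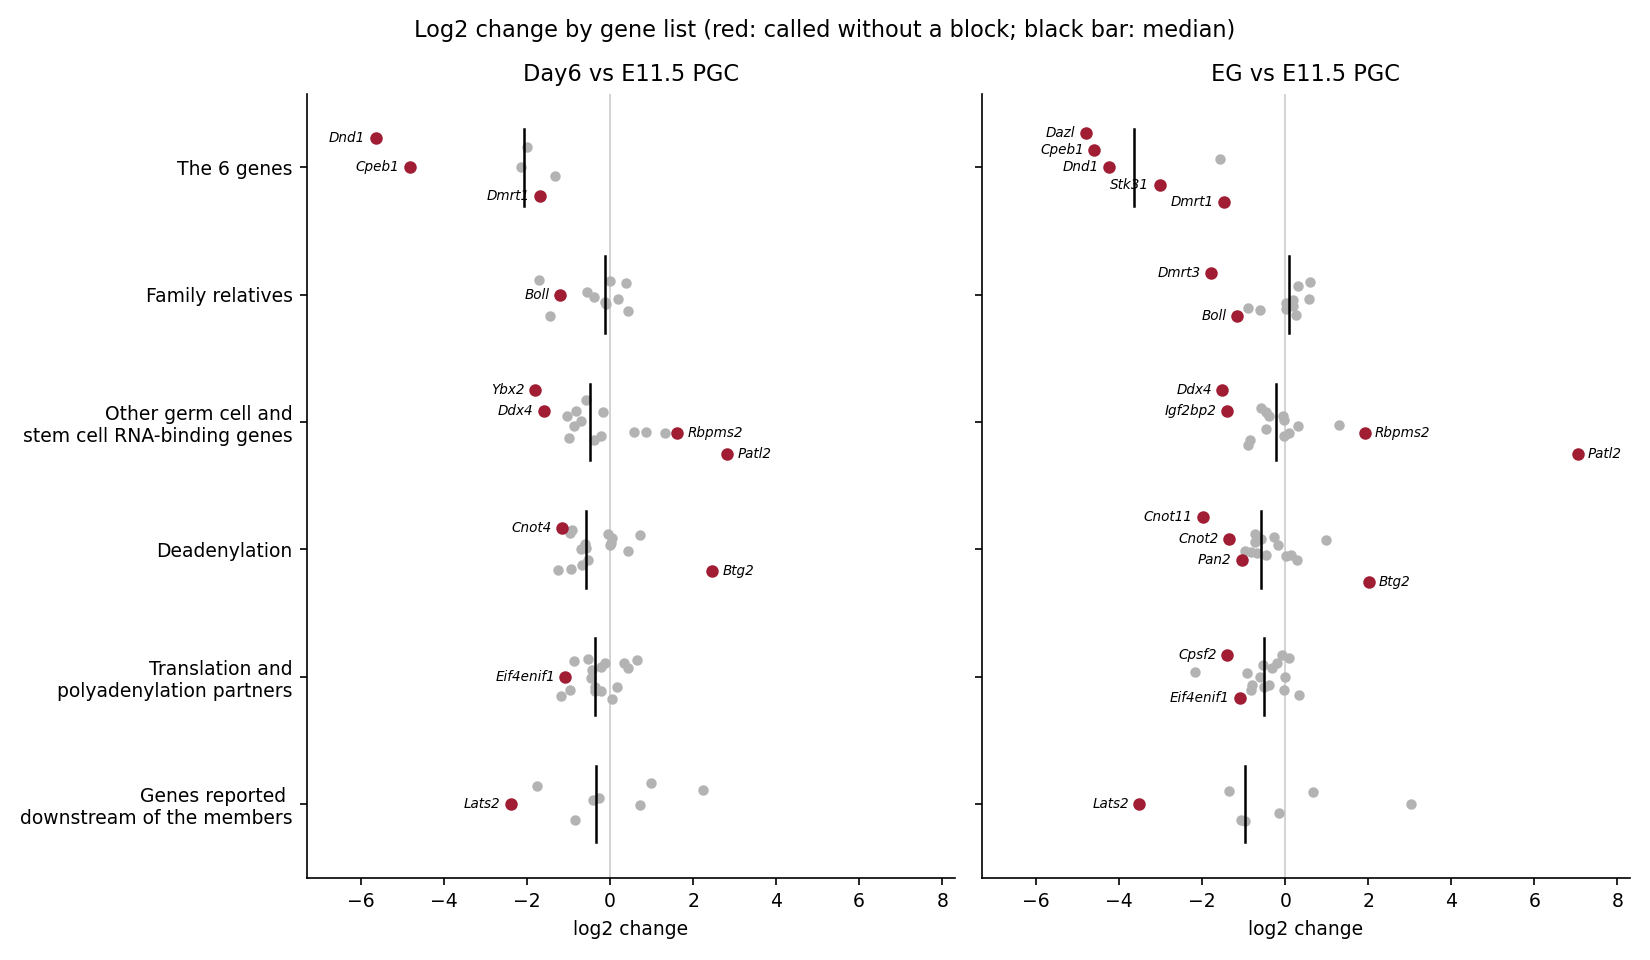
Log2 change (x axis) at Day6 and in EG against E11.5 PGC of the 6 genes and of the members of each list (points; vertical position within a row has no meaning), with called genes in red and named and the median of each list as a black bar. The members' median lies at -2.07 and -3.63, and those of the other lists between -0.96 and 0.10.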

How the data were processed

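Total RNA of 8 samples was amplified, labelled with Cy5 and hybridised to TORAY arrays, per the labels' protocols. The values are linear spot intensity as the authors deposited them, scaled to a median near 20 per array; how background and scaling were handled, and why 11674 values are missing, is not given in the sources used here. Probes with missing values had a median intensity of 1.95 where measured, and fully measured probes 27.6. The deposited intensity was converted to log2 with no further normalization, and missing values stayed missing. One symbol stood beside 16631 probes (12622 current, 3947 updated through synonyms, 62 kept), none beside 6842, and the brightest probe of a gene was used. A probe annotated Tpx2, a current symbol that is also an old name of Dazl, was not used.

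Changes were fitted per probe with limma 3.58.1 in R 4.3.3 (linear model, moderated two-sided test, all 8 arrays), with Benjamini-Hochberg adjustment over the probes measured on both arrays of both groups, at an adjusted p under 0.05. The model was checked on simulated data with independent noise of equal spread for all probes and no array series effect. That check does not cover the shared deviations of the real arrays. The number of arrays limits the precision of every value. The labels' array series pairs same-numbered arrays of E11.5 PGC, Day3 and Day6 (correlation of replicate 1 deviations 0.620, 0.547 and 0.694); with EG it was -0.0246 to 0.0611, so blocked EG values assume one series difference for all groups. Alternatives were quantile normalization, a pseudocount of 2, removal of the dimmest 25% of probes, a variance trend with robust estimation, the array series or the replicate number as a block, the 4 arrays compared alone, and each array left out; blocked fits without single arrays or without EG, and the settings of list genes, were added after seeing the data.

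The members, the lists and the rule for named genes were chosen with earlier results of these data known. The rule names the 6 members everywhere, the 3 genes nearest to each in Pearson's r, every family relative with a probe, and list genes called at Day6 or in EG against E11.5 PGC, at most 6 per list and comparison; Dmrt3 is named by it both ways. Sycp3, Tex19.1, the list genes called only with the block (Igf2bp1, Syncrip, Elavl2 and Rbpms) and the single marker genes were named after their values were seen, and so were the marker sums without single genes. Listed genes without a probe were not used here.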

Additional observations from a re-analysis of the deposited data

How the results depend on the processing

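Over 15 alternatives in 5 comparisons, the 6 genes gave 399 values on the same side of the threshold as reported, 16 that newly passed it, 28 that no longer did and 7 that changed sign. The replicate block with the array series gave 2 members called at Day3 in place of 1 and 3 for Day6 against Day3 in place of 0, with 3 at Day6, 5 in EG and 0 for EG against Day6 in either model; with the replicate number as the block the counts were 2 at Day3 and 2 for Day6 against Day3. Over all probes, the unblocked and the blocked model called 431 and 1725 at Day3, 1734 and 4790 at Day6, 2321 and 4905 in EG, 0 and 361 for Day6 against Day3, and 34 and 395 for EG against Day6. A pseudocount of 2, and likewise the variance trend, gave 2 members at Day3 and 2 for Day6 against Day3, and the 4 arrays of Day3 and E11.5 PGC alone gave 0. Over all probes, the replicate number as the block called 804 at Day3 and 78 for Day6 against Day3. The pseudocount called 660 and 56, the variance trend 572 and 34, and the 4 arrays alone 67 at Day3. Fits with single arrays left out leave 1 array in a group. In them some member calls at Day3, at Day6 and in EG were lost and others were gained. With the block, calls for Day6 against Day3 were lost as well. Calls over all probes fell in most of these fits too. Dnd1 and Cpeb1 were called at Day6 and in EG in all 16 settings, and Nanos3 in none of them; with the block, Nanos3 was called at Day6 without Day6 replicate 2 (-3.09, adjusted p = 0.0160 by limma) and in EG without either Day6 array (-2.40, adjusted p = 0.0140).

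Sign changes occurred in values that had not passed the test: Dazl at Day3 (-0.961 to 0.0199 over the fits without 1 array, with the positive value without Day3 replicate 1), Nanos3 for Day6 against Day3 (-1.77 to 0.218, without Day3 replicate 1), Nanos3 for EG against Day6 (-0.0337 with the array series as a block), Cpeb1 for EG against Day6 (-0.0474 to 0.498, without Day6 replicate 1), Dmrt1 for EG against Day6 (-0.269 to 0.688, without Day6 replicate 1) and Stk31 for Day6 against Day3 (-1.49 to 0.489, positive without Day3 replicate 2, at 0.0399, or without Day6 replicate 1, at 0.489). The cause was not tested. With 2 arrays a group, changes with wide intervals could not be resolved here.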

Other observations

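Stra8, a gene switched on at the entry into meiosis, varied widely between replicates. It was 76.5 and 6.39 on the E11.5 PGC arrays, 104 and 1334 on the Day3 arrays, 33.7 and 328 on the Day6 arrays, and 111 and 300 on the EG arrays. The log2 change was 4.08 ± 1.67 at Day3, 2.25 at Day6 and 3.04 in EG against E11.5 PGC, and limma with Benjamini-Hochberg adjustment called none of them (adjusted p of 0.326, 0.482 and 0.292). It was named after its values were seen.

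Suz12, a Polycomb subunit whose mRNA has been reported as a target of germ cell RNA-binding proteins, was 721 and 794 on the E11.5 PGC arrays, 1160 and 1263 on the Day3 arrays, 1238 and 1239 on the Day6 arrays, and 631 and 743 on the EG arrays. The Day3 and Day6 arrays lay above those of E11.5 PGC and EG, and no change against E11.5 PGC was called without the block (with it, Day6 was called, adjusted p = 0.0437 by limma). It too was named after its values were seen.

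Lin28a, an RNA-binding protein of stem and germ cells, was 245 and 193 on the E11.5 PGC arrays, 155 and 39.1 on the Day3 arrays, 174 and 68.6 on the Day6 arrays, and 194 and 108 on the EG arrays, with replicate 1 above replicate 2 in each group. It was likewise named after its values were seen and was not called in any comparison without the block.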
